A study of Mus musculus with 14 samples.

Results

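The genes described here are the insulin-like growth factor (IGF) system and the H19 transcript in the mouse ascending aorta. The members were the 10 genes of the deposited gene table whose symbol was Igf1, Igf2, H19, Igf1r, Igfbp2, Igfbp3, Igfbp4, Igfbp5, Igfbp6 or Igfbp7, out of 32289 genes in the table. All 10 were among the 13294 genes tested, which reached 1 FPKM (fragments per kilobase of transcript scaled to sequencing depth, a level corrected for transcript length) in at least 3 of the 14 libraries. Bulk RNA sequencing was done on ascending aortic tissue of C57BL/6 mice in week 6 of a thoracic aneurysm model. The BAPN+SB273005 group (4 libraries) and the BAPN+Cilengitide group (3 libraries) received β-aminopropionitrile together with an integrin αV inhibitor, the BAPN group (4 libraries) received β-aminopropionitrile alone, and the PBS group (3 libraries) received neither. β-aminopropionitrile (BAPN) blocks lysyl oxidase, the enzyme that cross-links collagen and elastin, Cilengitide is a cyclic peptide with an RGD motif, and SB273005 is a non-peptide small molecule. The groups are called SB273005, Cilengitide, BAPN and PBS below, and the first 3 are the BAPN-fed groups. The labels give neither doses nor the age of the mice, nor whether each library is a separate animal, and p-values therefore cover only the spread among these libraries.

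IGF1 and IGF2 are secreted growth factors that act mainly through the IGF1 receptor, a tyrosine kinase upstream of the PI3K-AKT and MAP kinase pathways, and IGF1 signalling supports survival and growth of vascular smooth muscle cells. Most IGF in the body is held by IGF-binding proteins, which lengthen its life, keep it from the receptor or deliver it in the matrix, and which proteases cut to release it. H19 is a maternally expressed long noncoding RNA that lies next to the paternally expressed Igf2 in an imprinted cluster, carries a microRNA in its first exon, and is abundant in the fetus and low in most adult tissues.

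Total estimated counts ran from 49027885 to 72584877 per library. Of the smooth muscle, fibroblast and endothelial marker lists, which check the labelled tissue, no gene was at 0 in every library of a group. A list of 6 kidney tubule genes summed to 199 to 352 FPKM over the 14 libraries, against 48.0 to 129 FPKM for the endothelial list. The source of the kidney transcripts was not tested. SB273005 replicate 2 stood apart. Its mitochondrially encoded protein genes summed to 159834 FPKM, against 35462 to 89178 FPKM in the other 13 libraries. Its Acta2 level, the smooth muscle actin that marks contractile cells, was 548 FPKM, against 2724 to 3994 FPKM in the other SB273005 libraries, and it held the lowest Igfbp2, Igfbp7 and Igf1r and the highest Igf1 and Igfbp3 of all 14 libraries. The part of these differences in its member values was not tested. The kidney gene Umod divided the libraries into 2 sets, with 19.8 to 25.8 FPKM in SB273005 replicate 4 and every Cilengitide and BAPN library, and 7.73 to 11.6 FPKM in SB273005 replicates 1 to 3 and the 3 PBS libraries. C57BL/6 mice are known to make no transcript of the class II gene H2-Ea. Its estimated count was 83 to 130 in the first set and 0 in the second, so the first set goes against the labelled strain. These sets were found in the data and are not in the labels. The comparisons of BAPN and of Cilengitide with PBS cannot be told apart from the sets, while SB273005 replicates 1 to 3 and PBS fall within 1 set. These SB273005 replicates are in the other set from BAPN and Cilengitide. SB273005 against either group is therefore also, in all but replicate 4, a comparison of the sets. The hepatocyte gene Alb was at 1.19 to 22.9 FPKM in the BAPN-fed libraries, against 123, 68.4 and 6.24 FPKM in the PBS libraries.

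Because Igfbp3, Igfbp4 and Igfbp2 carry the differences described below, their promoter windows are shown, 300 bases each and mostly before the gene start, read from RefSeq on GRCm38.p6 in the direction of the gene. RefSeq windows were matched for 9 of the 10 members, all but H19. Igfbp2 has 2 windows in RefSeq, and the one nearer to its printed start is shown. Capitals mark any match, on either strand, to 6 motifs: GGGCGG (the GC box bound by SP1), TATAAA (the TATA box), CATTCC (the TEAD site), ACGTG (the core of the HIF site), CAGAC (the SMAD element) and TGANTCA (the AP-1 site).
Igfbp3, chr11:7213874-7214173, minus strand: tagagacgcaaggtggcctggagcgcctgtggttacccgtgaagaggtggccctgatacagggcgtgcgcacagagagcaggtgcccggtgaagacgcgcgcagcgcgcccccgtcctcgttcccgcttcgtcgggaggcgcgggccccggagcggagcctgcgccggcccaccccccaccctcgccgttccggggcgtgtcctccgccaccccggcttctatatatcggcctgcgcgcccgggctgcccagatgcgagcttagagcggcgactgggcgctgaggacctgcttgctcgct
Igfbp4, chr11:99040994-99041293, plus strand: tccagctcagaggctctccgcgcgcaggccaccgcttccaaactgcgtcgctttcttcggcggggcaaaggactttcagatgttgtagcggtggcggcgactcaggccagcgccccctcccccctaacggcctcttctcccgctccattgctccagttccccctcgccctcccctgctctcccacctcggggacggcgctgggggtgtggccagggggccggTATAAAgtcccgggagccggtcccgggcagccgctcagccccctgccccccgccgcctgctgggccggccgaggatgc
Igfbp2, chr1:72824230-72824529, plus strand: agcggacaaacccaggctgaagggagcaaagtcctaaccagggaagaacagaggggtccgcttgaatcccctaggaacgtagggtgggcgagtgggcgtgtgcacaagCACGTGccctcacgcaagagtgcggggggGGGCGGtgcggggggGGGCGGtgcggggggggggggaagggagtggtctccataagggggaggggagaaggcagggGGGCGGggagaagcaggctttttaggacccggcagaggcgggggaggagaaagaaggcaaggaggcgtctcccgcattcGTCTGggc
The Igfbp3 window had none of the 6 motifs, a GC content of 71.7% and 37 CpG dinucleotides. Positions count from RefSeq's gene start, which is the printed start for Igfbp3 and Igfbp4, whereas for this Igfbp2 window it is base 72824480, before the printed start at 72824503. The Igfbp4 window had 1 TATAAA, starting at base -28, a GC content of 71.3% and 27 CpG dinucleotides. The Igfbp2 window had 3 GGGCGG, starting at -113, -98 and -37, and 1 CAGAC match on the minus strand, and its CACGTG, a palindrome, matched ACGTG on both strands. The other Igfbp2 window (chr1:72825137-72825436) had 0 GGGCGG, 2 CAGAC and 1 TGANTCA. Of all 32851 promoter windows of this length, 35.7% held GGGCGG, 13.6% TATAAA, 14.7% CATTCC, 19.6% ACGTG, 49.6% CAGAC and 7.81% TGANTCA. The median GC content over those windows was 52.7%. H19 is the precursor of miR-675, whose mature forms are printed from RefSeq with the seed, bases 2 to 8, in capitals.
miR-675-5p: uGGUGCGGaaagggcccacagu
miR-675-3p: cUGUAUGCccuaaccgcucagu
The 2 seeds differ, and the libraries did not measure mature microRNAs.

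Compared with PBS, the aortas of the BAPN-fed groups had higher mean levels of 3 binding proteins, Igfbp2, Igfbp3 and Igfbp4. Of these, Igfbp3 passed the test in both inhibitor groups, Igfbp4 in SB273005 only and Igfbp2 in none. Among the members, no ligand or receptor passed. Igfbp3 was the member with the smallest p in both inhibitor groups, at 6.57 times the PBS mean with SB273005 and 4.86 times with Cilengitide. Igfbp4 was at 1.59 to 1.69 times the PBS mean in all 3 BAPN-fed groups and Igfbp2 at 2.60 to 6.52 times. In SB273005 replicate 2, however, Igfbp2 was at 20.8 FPKM, below every PBS library. In an edgeR quasi-likelihood fit over all 14 libraries, with Benjamini-Hochberg adjustment over 13294 genes and a threshold of 0.05, 2 of 10 members rose in SB273005 against PBS (Igfbp3 and Igfbp4), where 7.82% of all genes tested rose and 13.2% passed in either direction. In Cilengitide against PBS 1 of 10 rose (Igfbp3), where 3.98% of all genes rose and 5.58% passed in either direction. In BAPN against PBS 0 of 10 passed, where 0.233% of all genes passed. In that comparison 2 members had an unadjusted p under 0.05, as did 1591 of all 13294 genes tested. DESeq2 called 1 member (Igfbp4) and 480 genes, and limma on log2(FPKM + 1) called 0 members and 15 genes. All libraries of the group lay above all PBS libraries for 2 of 10 members in SB273005, where 9.15% of all genes did, for 4 in Cilengitide (Igfbp2, Igfbp3, Igfbp4 and Igfbp7), where 13.5% did, and for 2 in BAPN (Igfbp2 and Igfbp4), where 7.02% did. The median log2 difference over the members was 0.35 in SB273005, 0.13 in Cilengitide and 0.08 in BAPN against PBS, and over all genes tested it was 0.02, -0.02 and 0.0016.

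**Figure D1:**
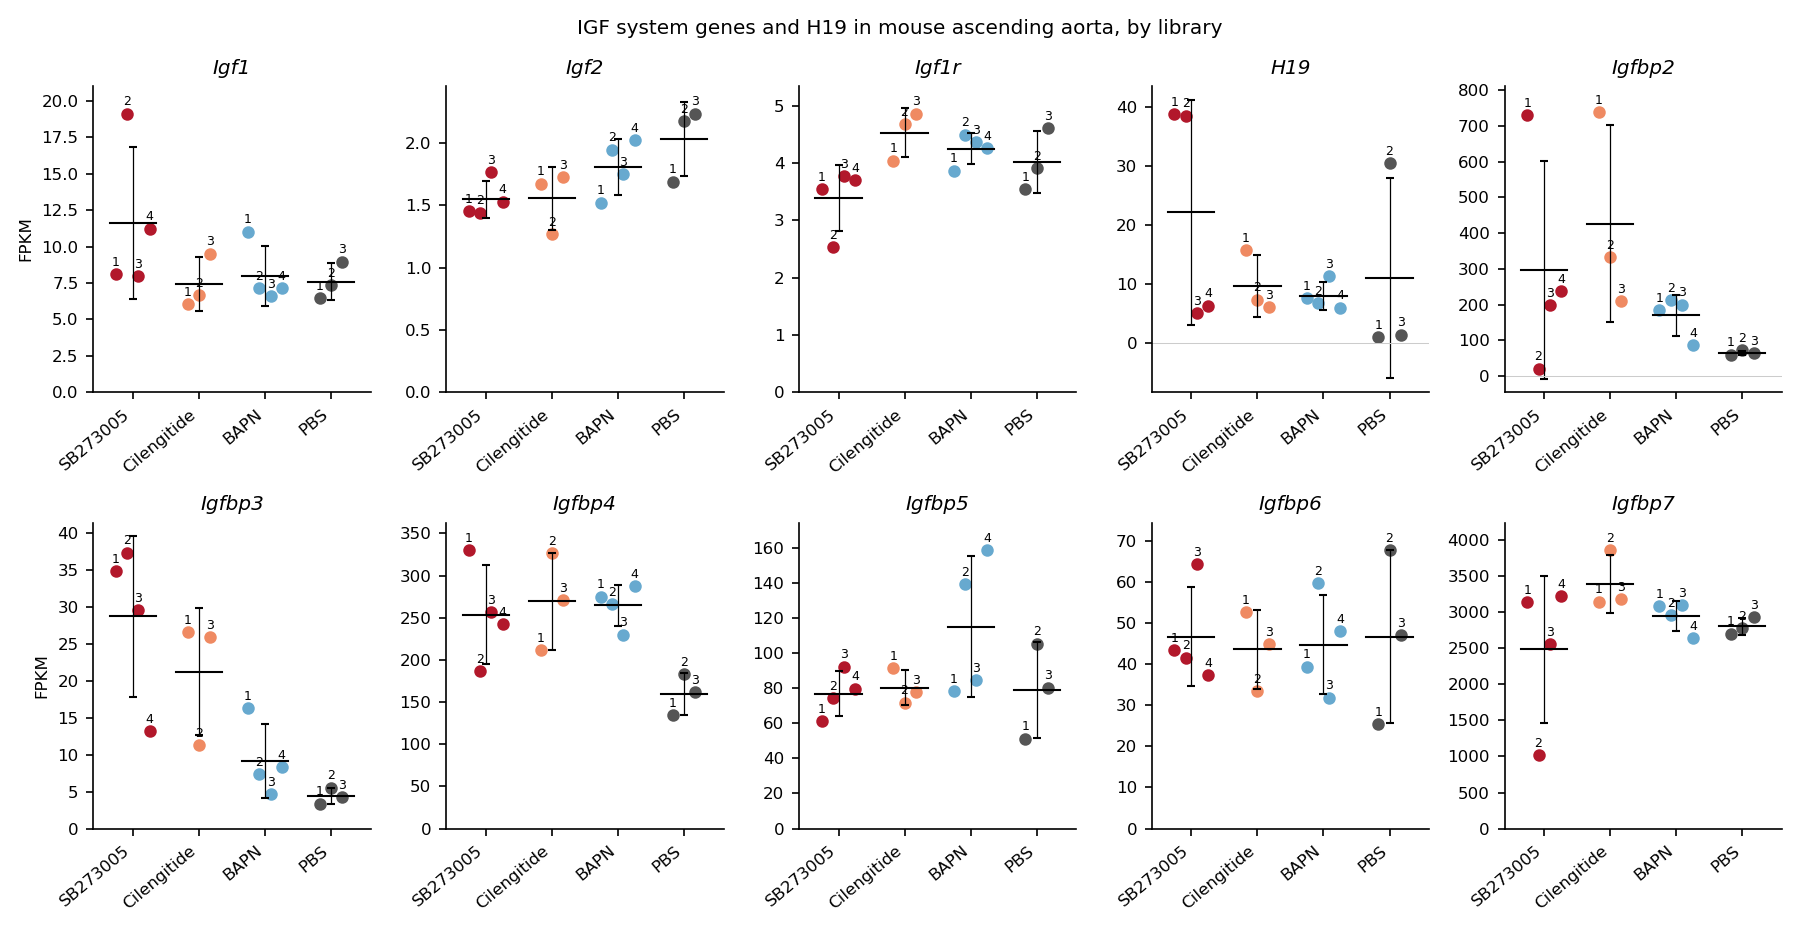
FPKM of the 10 members in each library, by group from left to right (BAPN+SB273005, BAPN+Cilengitide, BAPN and PBS). Points are libraries with their replicate number, horizontal lines are group means and bars are 1 SD. Igfbp3 and Igfbp4 in every SB273005 and Cilengitide library lay above the 3 PBS libraries, and H19 was over 30 FPKM in 2 SB273005 libraries and 1 PBS library.

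Igfbp3 (ENSMUSG00000020427; chr11:7206086-7213923, minus strand, mm10) encodes the binding protein that carries most IGF in serum as a complex with the acid-labile subunit. Its level was 34.9, 37.4, 29.5 and 13.1 FPKM in the SB273005 libraries, 26.6, 11.3 and 25.9 FPKM in the Cilengitide libraries, 16.3, 7.39, 4.65 and 8.32 FPKM in the BAPN libraries, and 3.35, 5.55 and 4.23 FPKM in the PBS libraries. Every library of both inhibitor groups lay above every PBS library, and 3 of 4 BAPN libraries did. Group means were 28.7 ± 10.9 FPKM in SB273005 (SD, n = 4), 21.3 ± 8.62 in Cilengitide (n = 3), 9.16 ± 4.99 in BAPN (n = 4) and 4.38 ± 1.11 in PBS (n = 3). The log2 difference from PBS was 2.76 ± 0.48 (SE; adjusted p = 0.00506) with SB273005. It was 2.30 ± 0.49 (adjusted p = 0.0186) with Cilengitide and 1.05 ± 0.45 (adjusted p = 0.369) with BAPN alone, which was 0.63 without BAPN replicate 1. The SB273005 call held without each library in turn (highest adjusted p = 0.0239), and within the 1 library set that holds PBS and SB273005 replicates 1 to 3 the difference was 3.02 (adjusted p = 0.0170). The Cilengitide call was lost without PBS replicate 1 (adjusted p = 0.0625), PBS replicate 2 (0.0568), PBS replicate 3 (0.0632) or Cilengitide replicate 1 (0.0698).

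Igfbp4 (ENSMUSG00000017493; chr11:99041244-99054392, plus strand) encodes a binding protein that mostly restrains IGF until the metalloprotease PAPP-A cuts it. It measured 329.9, 186, 256 and 242 FPKM with SB273005, 211, 326 and 271 FPKM with Cilengitide, 275, 266, 229.8 and 287 FPKM with BAPN, and 134, 183 and 161 FPKM with PBS. No BAPN-fed library fell within the PBS range, although SB273005 replicate 2 at 186 FPKM lay just above PBS replicate 2 at 183 FPKM. Means were 254 ± 59.1 FPKM in SB273005 (SD, n = 4), 269.5 ± 57.6 in Cilengitide (n = 3), 265 ± 24.7 in BAPN (n = 4) and 159.6 ± 24.5 in PBS (n = 3). The log2 differences from PBS were close to each other, at 0.71 ± 0.21 with SB273005 (SE; adjusted p = 0.0427), 0.79 ± 0.22 with Cilengitide (adjusted p = 0.0567) and 0.72 ± 0.21 with BAPN (adjusted p = 0.155). The single call among them was near the threshold. It was lost without any 1 library other than Cilengitide replicates 1 and 2 and SB273005 replicate 2 (adjusted p 0.0515 to 0.151 without each of the other 11), and within the set of PBS and SB273005 replicates 1 to 3 (adjusted p = 0.177). It was also lost in limma on log2(FPKM + 1) (0.0506) and log2(TPM + 1) (0.212), with no FPKM filter (0.120) and when only the 2 groups were fitted (0.139). The other 2 differences passed in DESeq2, at adjusted p = 0.00622 with Cilengitide and 0.0204 with BAPN, and the Cilengitide difference passed in edgeR without SB273005 replicate 1 (0.0402) or 2 (0.0291) and with a filter of 5 FPKM (0.0395). Pappa was at 0.535 FPKM or less in every library and was not tested.

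The macrophage list is given beside both genes. Of its 10 markers, all tested and none at 0, 8 rose in SB273005, 8 in Cilengitide and 1 in BAPN against PBS. For this list and the fibroblast list below, the shares over all genes tested were 7.82% higher in SB273005 and 3.98% higher in Cilengitide. In BAPN 0.233% passed in either direction. The macrophage list summed to 299 to 553 FPKM in SB273005, 267 to 510 FPKM in Cilengitide, 195 to 372 FPKM in BAPN and 89.6 to 116 FPKM in PBS. The fibroblast list, 10 genes that include Dcn and Lum, summed to 1371 to 1796 FPKM in SB273005, 1369.8 to 1914 FPKM in Cilengitide, 1437 to 1905 FPKM in BAPN and 977 to 1506 FPKM in PBS, with 4, 2 and 0 of its 10 genes higher in SB273005, Cilengitide and BAPN against PBS. The part of these cell types in the Igfbp3 and Igfbp4 differences was not tested. In bulk tissue, more or fewer cells of a type cannot be told apart from more or less RNA per cell.

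Igfbp2 (ENSMUSG00000039323; chr1:72824503-72852474, plus strand), whose product binds IGF2 with a higher affinity than IGF1 and also carries an RGD sequence that integrins can bind, had the widest spread among the binding proteins. It measured 730.2, 20.8, 198 and 237 FPKM with SB273005, 738, 332 and 210.0 FPKM with Cilengitide, 184, 212, 199.95 and 86.1 FPKM with BAPN, and 60.5, 72.1 and 63.8 FPKM with PBS. Every BAPN-fed library except SB273005 replicate 2 was above the PBS range, and that library was the lowest of all 14. Means were 297 ± 304 FPKM in SB273005 (SD, n = 4), 427 ± 276 in Cilengitide (n = 3), 170.4 ± 57.4 in BAPN (n = 4) and 65.5 ± 5.98 in PBS (n = 3). The log2 differences from PBS were 2.21 ± 0.81 with SB273005 (SE; adjusted p = 0.0894), 2.74 ± 0.86 with Cilengitide (adjusted p = 0.0829) and 1.38 ± 0.78 with BAPN (adjusted p = 0.552), and none passed. Without SB273005 replicate 1 the SB273005 difference was 1.25 (adjusted p = 0.247). Without SB273005 replicate 2 it was 2.60 (adjusted p = 0.0149) and the Cilengitide difference, 2.73, also passed (adjusted p = 0.0146). The Cilengitide difference also passed without SB273005 replicate 1 (adjusted p = 0.0428), when only the 2 groups were fitted (0.0190) and in DESeq2 (0.00779), and the SB273005 difference passed in DESeq2 (0.0175). The chondrocyte list, of which Acan and Sox9 are members, moved in the same direction by group range, but not in every library. Of its 8 genes, 6 were tested and none was at 0 in every library of a group. The 8 summed to 76.0 to 316 FPKM in SB273005, 118 to 369 FPKM in Cilengitide, 42.8 to 69.8 FPKM in BAPN and 23.3 to 34.6 FPKM in PBS. SB273005 replicate 2, with the lowest Igfbp2, had a chondrocyte sum of 76.0 FPKM, above every BAPN and PBS library. Against PBS, 1 of the 6 rose in each inhibitor group, where 7.82% of all genes rose in SB273005 and 3.98% in Cilengitide. The part of this list in the Igfbp2 differences was not tested.

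**Figure D2:**
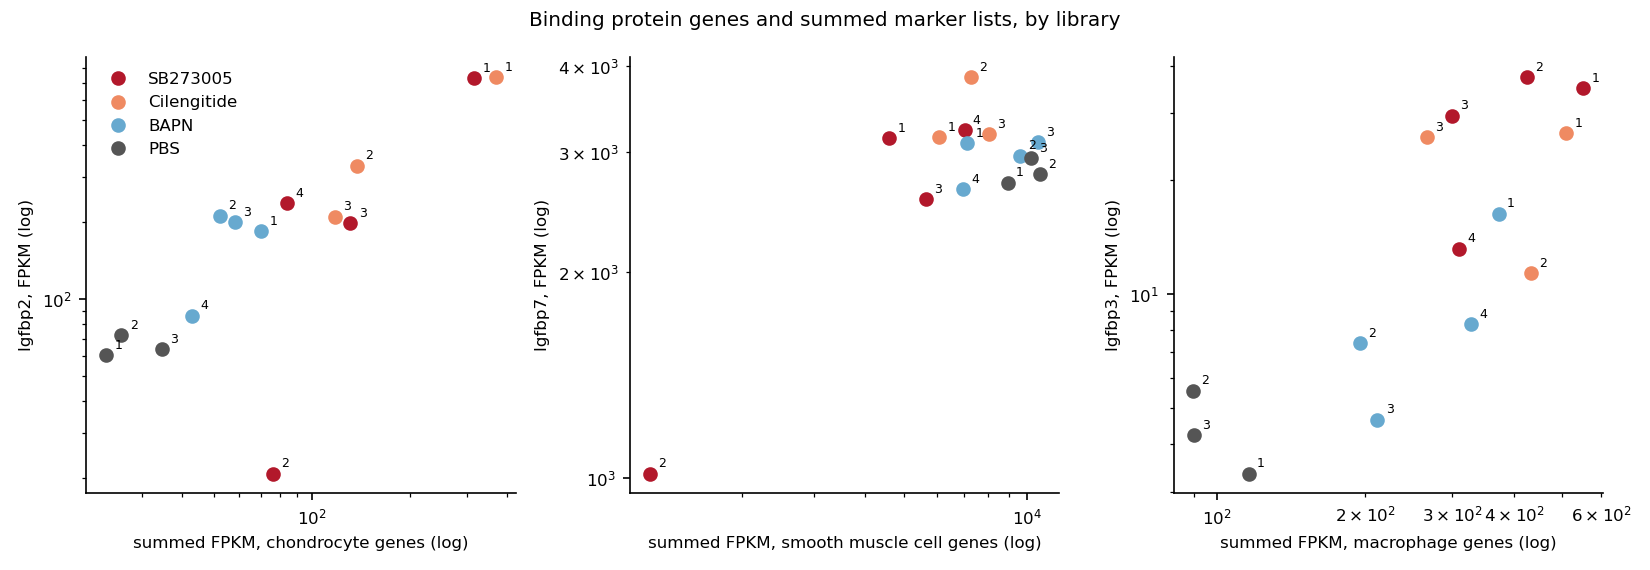
Igfbp2, Igfbp7 and Igfbp3 (FPKM, log axes) against the summed FPKM of the chondrocyte, smooth muscle cell and macrophage lists, 1 point per library with its replicate number, coloured by group. SB273005 replicate 2 lies apart at 20.8 FPKM of Igfbp2 and 1014 FPKM of Igfbp7, and the 2 libraries with over 700 FPKM of Igfbp2 have chondrocyte sums of 316 and 369 FPKM.

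Igfbp5 (ENSMUSG00000026185; chr1:72857932-72874884, minus strand), whose product binds matrix and is made by smooth muscle and fibroblasts, lies tail to tail with Igfbp2, 5458 bases away. It measured 61.3, 74.3, 92.3 and 79.7 FPKM with SB273005, 91.5, 71.8 and 77.5 FPKM with Cilengitide, 78.2, 139, 84.5 and 159 FPKM with BAPN, and 51.2, 105 and 80.3 FPKM with PBS, and all groups overlapped. BAPN replicates 2 and 4 were the highest. The log2 differences from PBS were -0.0017 ± 0.29 with SB273005 (adjusted p = 0.997), 0.05 ± 0.31 with Cilengitide (adjusted p = 0.960) and 0.53 ± 0.29 with BAPN (adjusted p = 0.535), where the sign with SB273005 changed with the processing. The ratio of Igfbp2 to Igfbp5 FPKM was 0.280 to 11.9 in SB273005, 2.71 to 8.06 in Cilengitide, 0.543 to 2.37 in BAPN and 0.684 to 1.18 in PBS.

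Igfbp6 (ENSMUSG00000023046; chr15:102144362-102149511, plus strand) encodes a binding protein that prefers IGF2. It measured 43.4, 41.6, 64.3 and 37.4 FPKM with SB273005, 52.6, 33.5 and 44.9 FPKM with Cilengitide, 39.4, 59.8, 31.9 and 48.0 FPKM with BAPN, and 25.4, 67.7 and 47.1 FPKM with PBS. The 3 PBS libraries held both the lowest and the highest value. Differences from PBS were 0.02 ± 0.31 with SB273005 (adjusted p = 0.967), -0.08 ± 0.33 with Cilengitide (adjusted p = 0.925) and -0.08 ± 0.31 with BAPN (adjusted p = 0.964), of which each changed sign under at least 1 other setting.

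Igfbp7 (ENSMUSG00000036256; chr5:77349240-77408041, minus strand), which encodes a secreted vascular protein that binds IGF only weakly, was the most abundant member. It measured 3138, 1014, 2557 and 3229 FPKM with SB273005, 3148, 3861 and 3183 FPKM with Cilengitide, 3086, 2959.7, 3101 and 2646 FPKM with BAPN, and 2703, 2779 and 2934 FPKM with PBS. The Cilengitide libraries lay above those of BAPN and of PBS. Differences from PBS were -0.13 ± 0.30 with SB273005 (adjusted p = 0.813), 0.32 ± 0.32 with Cilengitide (adjusted p = 0.637) and 0.07 ± 0.30 with BAPN (adjusted p = 0.965). Without SB273005 replicate 2 the first was 0.11 (adjusted p = 0.654). In that library the smooth muscle list, 8 genes led by Acta2, summed to 1188 FPKM. Over the groups the list summed to 1188 to 7018 FPKM in SB273005, 6081 to 8058 FPKM in Cilengitide, 6977 to 10624 FPKM in BAPN and 8957 to 10728 FPKM in PBS. None of its genes was at 0, and 4 of 8 were lower in SB273005 against PBS, where 715 of all 13294 genes tested were lower. The part of this list in the Igfbp7 levels was not tested.

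Summed over the 6 binding proteins, Igfbp7 held 72.3% to 84.1% of the FPKM in SB273005, 73.8% to 83.5% in Cilengitide, 81.2% to 84.9% in BAPN and 86.5% to 90.8% in PBS, so its share was lower in every BAPN-fed library than in any PBS library. The other 5 summed to 1199.8, 361, 641 and 609.9 FPKM in the SB273005 libraries, 1119.9, 775 and 629 FPKM in the Cilengitide libraries, 592, 685, 551 and 588 FPKM in the BAPN libraries, and 275, 434 and 357 FPKM in the PBS libraries. All but SB273005 replicate 2 of the BAPN-fed libraries exceeded the PBS libraries in this sum. Igfbp2 made up 65.9% of it in Cilengitide replicate 1 and 60.9% in SB273005 replicate 1, against 16.6% to 22.03% in PBS. It made up less than in any PBS library in SB273005 replicate 2 (5.77%) and BAPN replicate 4 (14.6%). The gene length behind the deposited gene FPKM is not given, so shares and ratios between genes are approximate. In Cilengitide the mean gene FPKM of Igfbp2 was 427, against 598 for its main transcript, while for Igfbp5 the 2 were 80.3 and 80.2.

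**Figure D3:**
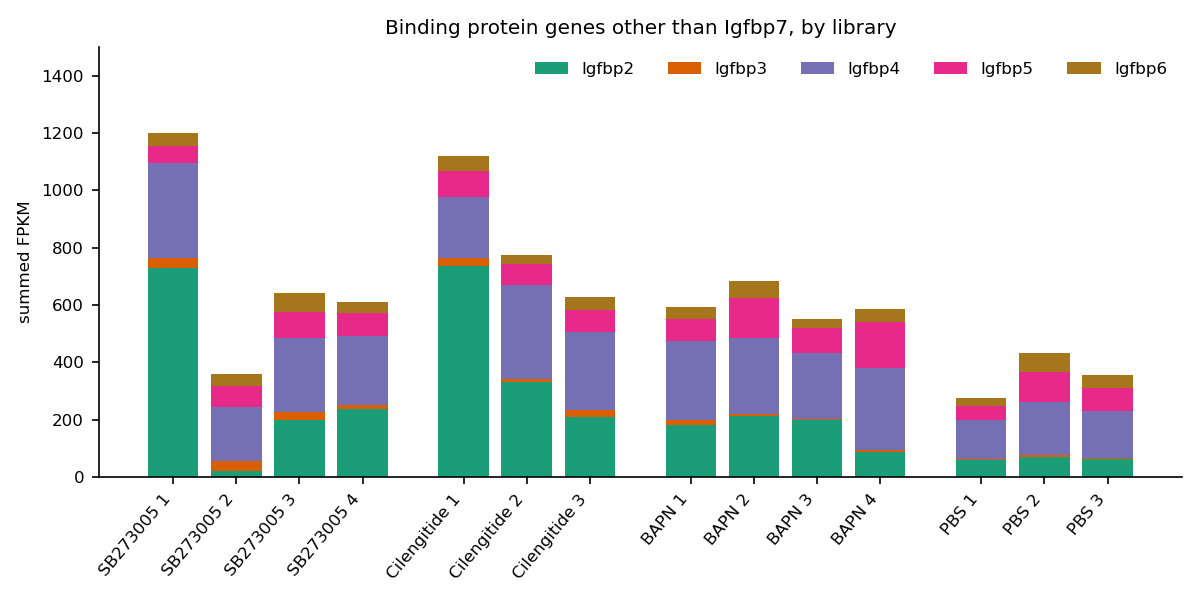
Summed FPKM of Igfbp2 to Igfbp6 in each library, stacked by gene, in the order BAPN+SB273005, BAPN+Cilengitide, BAPN and PBS. The 3 PBS libraries sum to 275 to 434 FPKM, and SB273005 replicate 1 and Cilengitide replicate 1 reach 1199.8 and 1119.9 FPKM, mostly Igfbp2.

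The ligand Igf1 (ENSMUSG00000020053; chr10:87858265-87937042, plus strand) was at 8.12, 19.1, 7.98 and 11.2 FPKM with SB273005, 6.05, 6.65 and 9.51 FPKM with Cilengitide, 11.03, 7.16, 6.57 and 7.13 FPKM with BAPN, and 6.46, 7.34 and 8.96 FPKM with PBS. The groups overlapped, and SB273005 replicate 2 was well above the rest. The log2 differences from PBS were 0.68 ± 0.31 with SB273005 (adjusted p = 0.168), 0.00040 ± 0.33 with Cilengitide (adjusted p = 1.00; the sign changed with the processing) and 0.07 ± 0.31 with BAPN (adjusted p = 0.970). Without SB273005 replicate 2 the SB273005 difference was 0.29 (adjusted p = 0.436). Igf2 (ENSMUSG00000048583; chr7:142650766-142666816, minus strand), the fetal growth factor, was low throughout, at 1.45, 1.44, 1.77 and 1.53 FPKM with SB273005, 1.67, 1.27 and 1.73 FPKM with Cilengitide, 1.52, 1.95, 1.75 and 2.02 FPKM with BAPN, and 1.69, 2.18 and 2.24 FPKM with PBS. Its differences from PBS were -0.34 ± 0.16 with SB273005 (adjusted p = 0.181), -0.35 ± 0.18 with Cilengitide (adjusted p = 0.284) and -0.17 ± 0.16 with BAPN (adjusted p = 0.788). By deposited gene FPKM, Igf1 exceeded Igf2 in every library, by 4.51 to 13.3 times with SB273005, 3.61 to 5.51 times with Cilengitide, 3.53 to 7.25 times with BAPN and 3.37 to 4.01 times with PBS.

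The receptor gene Igf1r (ENSMUSG00000005533; chr7:67952827-68233668, plus strand) had the narrowest fitted intervals of the members. It measured 3.54, 2.53, 3.77 and 3.70 FPKM with SB273005, 4.04, 4.68 and 4.86 FPKM with Cilengitide, 3.87, 4.50, 4.37 and 4.27 FPKM with BAPN, and 3.55, 3.91 and 4.61 FPKM with PBS. SB273005 libraries were all below those of Cilengitide and of BAPN, and overlapped those of PBS. Its differences from PBS were -0.20 ± 0.14 with SB273005 (adjusted p = 0.368), 0.21 ± 0.15 with Cilengitide (adjusted p = 0.487) and 0.08 ± 0.14 with BAPN (adjusted p = 0.905).

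H19 (ENSMUSG00000000031; chr7:142575529-142578143, minus strand) lies 72623 bases from Igf2, and Mir675 lies in its exon 1 (142577064 to 142577147). It varied more than any other member, by 36.8 times between the highest and the lowest library. It measured 38.8, 38.6, 5.08 and 6.40 FPKM with SB273005, 15.8, 7.39 and 6.16 FPKM with Cilengitide, 7.68, 6.85, 11.3 and 6.06 FPKM with BAPN, and 1.06, 30.6 and 1.45 FPKM with PBS. Replicates split within groups: SB273005 replicates 1 and 2 and PBS replicate 2 were over 30 FPKM, and PBS replicates 1 and 3 were below every other library. Group means were 22.2 ± 19.03 FPKM in SB273005 (SD, n = 4), 9.78 ± 5.25 in Cilengitide (n = 3), 7.98 ± 2.33 in BAPN (n = 4) and 11.03 ± 16.9 in PBS (n = 3). The log2 differences from PBS were 1.02 ± 1.04 with SB273005 (adjusted p = 0.555), -0.20 ± 1.08 with Cilengitide (adjusted p = 0.950) and -0.52 ± 1.01 with BAPN (adjusted p = 0.917). The differences with Cilengitide and BAPN were of the other sign in limma on log2(FPKM + 1), at 0.89 and 0.70. PBS replicate 2 decided them: without it the difference was 4.24 with SB273005 (adjusted p = 0.0327), 3.02 with Cilengitide (adjusted p = 0.109) and 2.69 with BAPN (adjusted p = 0.307). That library also had the highest skeletal muscle sum, 2025 FPKM over 7 genes, against 33.2 and 40.9 FPKM in PBS replicates 1 and 3, and 61.7 to 262 FPKM in SB273005, 163 to 387 FPKM in Cilengitide and 138 to 1304 FPKM in BAPN. SB273005 replicates 1 and 2, the other libraries of high H19, had sums of 61.7 and 253 FPKM. The part of muscle tissue in H19 was not tested.

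**Figure D4:**
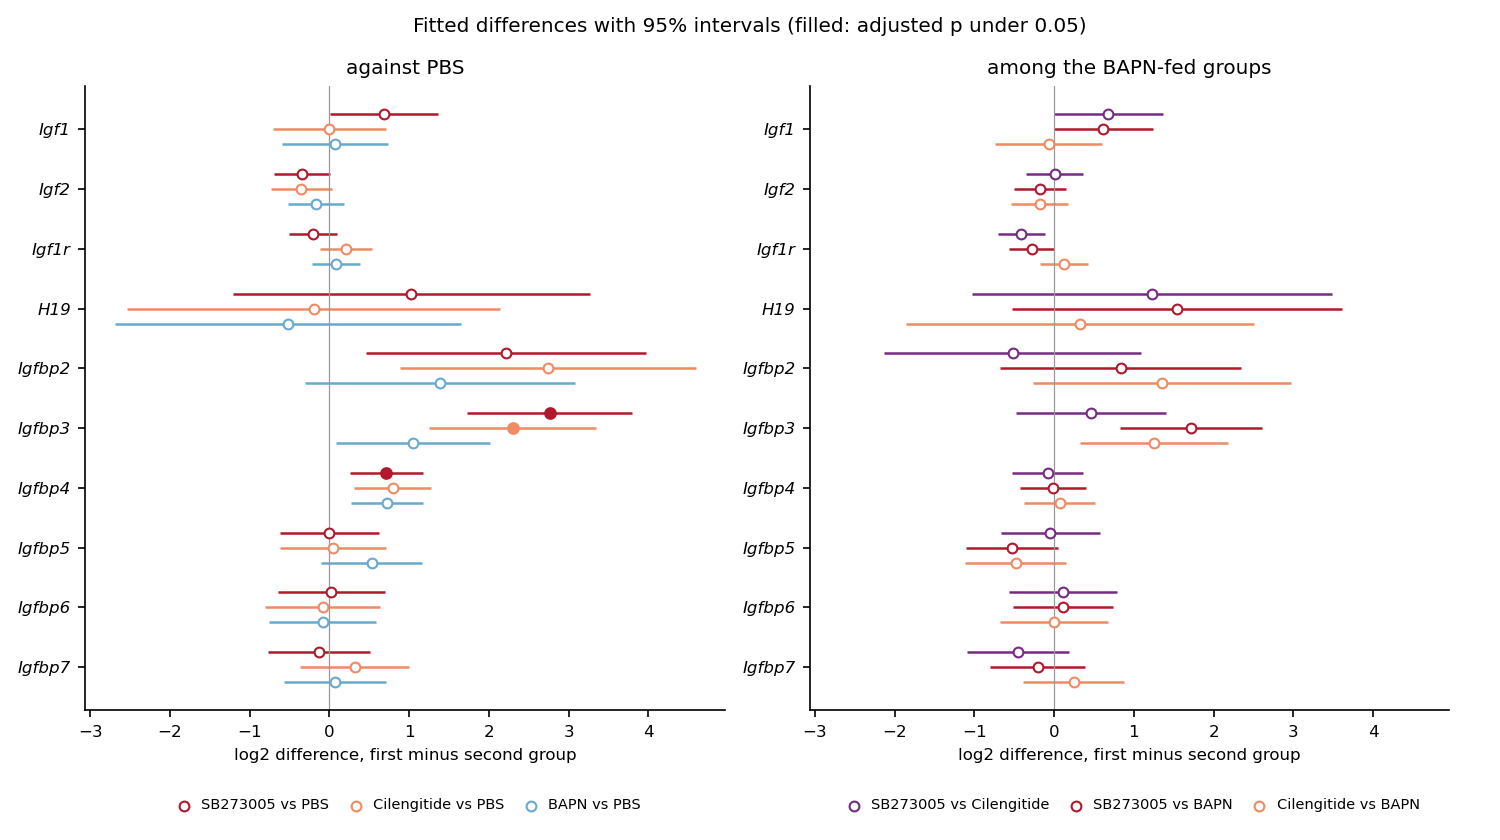
Fitted log2 differences of the 10 members, first minus second group, with 95% intervals, against PBS (left) and among the BAPN-fed groups (right). Filled points have an adjusted p under 0.05 in the edgeR fit: Igfbp3 in SB273005 (2.76) and in Cilengitide (2.30) and Igfbp4 in SB273005 (0.71), each against PBS.

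Between the inhibitor groups and BAPN alone, which asks what integrin αV inhibition added to BAPN, Igfbp3 was again the member with the smallest p, and no member passed the threshold. SB273005 replicates 1 to 3 are in the other Umod set from BAPN, so inhibitor and set cannot be told apart in these libraries. Igfbp3 was 3.14 times the BAPN mean with SB273005 and 2.32 times with Cilengitide, and BAPN replicate 1 at 16.3 FPKM exceeded the lowest library of each. In SB273005 against BAPN its log2 difference was 1.72 ± 0.41 (adjusted p = 0.127), which DESeq2 called (adjusted p = 0.00255) and which also passed in edgeR without SB273005 replicate 4 (adjusted p = 0.0459). That replicate is the only SB273005 library in the Umod set of BAPN, and without it this comparison cannot be told apart from the sets. At 13.1 FPKM, its Igfbp3 level lay within the BAPN range of 4.65 to 16.3 FPKM. In Cilengitide against BAPN the Igfbp3 difference was 1.25 ± 0.43 (adjusted p = 0.795). In SB273005 against BAPN 0 of 10 members passed, where 0.0301% of all genes passed. An unadjusted p under 0.05 was found for 2 members and for 2146 of all 13294 genes tested. DESeq2 called 1 member and 395 genes, and limma on log2(FPKM + 1) called 0 members and 15 genes. In Cilengitide against BAPN 0 of 10 passed, where 0% of all genes passed. There 1 member and 807 of all 13294 genes had an unadjusted p under 0.05. DESeq2 called 0 members and 21 genes, and limma called 0 members. By deposited FPKM, groups did not overlap for 1 member in each of these comparisons. Igf1r was lower in SB273005 than in BAPN, as were 6.3% of all genes. Igfbp7 was higher in Cilengitide than in BAPN, as were 2.68% of all genes.

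The other differences from BAPN were smaller or wider. In SB273005 they were 1.54 ± 0.96 for H19 (adjusted p = 0.433), 0.83 ± 0.70 for Igfbp2 (adjusted p = 0.566), 0.62 ± 0.29 for Igf1 (adjusted p = 0.312) and 0.11 ± 0.29 for Igfbp6 (adjusted p = 0.876). Without SB273005 replicate 1 that of Igfbp2 was -0.13, and without SB273005 replicate 2 that of Igf1 was 0.23. The remaining differences were -0.01 ± 0.19 for Igfbp4 (adjusted p = 0.984), -0.17 ± 0.15 for Igf2 (adjusted p = 0.579), -0.21 ± 0.27 for Igfbp7 (adjusted p = 0.732), -0.28 ± 0.13 for Igf1r (adjusted p = 0.307) and -0.53 ± 0.27 for Igfbp5 (adjusted p = 0.345). In Cilengitide they were 1.35 ± 0.75 for Igfbp2 (adjusted p = 0.799; 0.72 without Cilengitide replicate 1), 0.32 ± 1.01 for H19 (adjusted p = 0.968), 0.24 ± 0.30 for Igfbp7 (adjusted p = 0.894), 0.13 ± 0.14 for Igf1r (adjusted p = 0.879) and 0.07 ± 0.21 for Igfbp4 (adjusted p = 0.967). They were -0.00073 ± 0.31 for Igfbp6 (adjusted p = 1.00), -0.07 ± 0.31 for Igf1 (adjusted p = 0.984), -0.18 ± 0.16 for Igf2 (adjusted p = 0.866) and -0.48 ± 0.29 for Igfbp5 (adjusted p = 0.812).

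The compounds themselves were compared in SB273005 against Cilengitide, 1 pair that sets a non-peptide against a cyclic peptide, at doses the labels do not give. SB273005 replicates 1 to 3 and the Cilengitide libraries are in opposite Umod sets, so compound and set cannot be told apart in them. None of the 10 members passed, and 0% of all genes passed. An unadjusted p under 0.05 was found for 2 members (Igf1r and Igf1) and for 1224 of all 13294 genes tested. DESeq2 called 0 members and 39 genes, and limma called 0 members. Igf1r was lower with SB273005, at -0.41 ± 0.14 (95% interval -0.71 to -0.11, adjusted p = 0.500), with groups that did not overlap, as for 3.87% of all genes lower in SB273005. Igf1 was at 0.68 ± 0.31 (0.0055 to 1.36, adjusted p = 0.541), and at 0.29 without SB273005 replicate 2 (adjusted p = 0.820). The intervals left room for sizeable differences in either direction for H19 (1.22 ± 1.04, -1.03 to 3.48, adjusted p = 0.731), Igfbp2 (-0.52 ± 0.75, -2.14 to 1.096, adjusted p = 0.855) and Igfbp3 (0.46 ± 0.44, -0.48 to 1.40, adjusted p = 0.762). They were narrower for Igfbp4 (-0.08 ± 0.21, -0.53 to 0.37, adjusted p = 0.929) and Igf2 (0.0073 ± 0.16, -0.35 to 0.36, adjusted p = 0.993). For the other 3 members the differences were -0.05 ± 0.29 for Igfbp5 (-0.67 to 0.57, adjusted p = 0.971), 0.11 ± 0.31 for Igfbp6 (-0.57 to 0.79, adjusted p = 0.935) and -0.45 ± 0.29 for Igfbp7 (-1.09 to 0.19, adjusted p = 0.646). These comparisons share libraries with those against PBS and BAPN, so they are not independent of them.

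Each member except Igf2 was carried mainly by 1 annotated transcript. The Igf1 transcript ENSMUST00000095360, of 7052 bases, held 77.0% to 91.6% of the summed transcript FPKM over the 14 libraries, and ENSMUST00000105300 held 4.73% to 13.6%. By estimated counts, which long transcripts raise, the median shares were 97.2% and 1.87%. The main transcript of H19 held 85.8% to 98.8%, that of Igf1r 88.2% to 97.1%, that of Igfbp2 94.0% to 99.96%, that of Igfbp3 96.9% to 99.7% and that of Igfbp7 92.2% to 94.4%. For Igf2, the share of ENSMUST00000000033 ran from 0% to 98.5% and that of ENSMUST00000105936 from 0% to 100%, so the split between these overlapping transcripts was not stable at 445 to 931 estimated counts per library. Igf1 overlaps the antisense gene Igf1os, Igf2 overlaps Igf2os, Gm49394 and Mir483, and Igfbp7 overlaps Gm34648 and Polr2b. The strand setting of the counting is not given in the sources used here, and the effect of these overlaps on the counts was not tested. The deposited Igf2os level was 0.0550 FPKM or less in every library.

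Among other genes of the IGF pathway, most did not pass. For comparison, 7.82% of all genes rose and 13.2% passed in SB273005 against PBS, and 3.98% rose and 5.58% passed in Cilengitide against PBS. Of the 3 IGF and insulin receptor genes tested, Igf1r among them, 1 rose in each inhibitor group: Igf2r, the receptor that takes IGF2 to lysosomes, was at 10.96 ± 1.87 FPKM with SB273005 (SD, n = 4), 11.2 ± 1.36 with Cilengitide (n = 3) and 5.86 ± 0.121 with PBS (n = 3). Its log2 difference from PBS was 0.96 ± 0.18 with SB273005 (adjusted p = 0.00598) and 0.98 ± 0.18 with Cilengitide (adjusted p = 0.0129). With BAPN alone it was 0.66 ± 0.17 (adjusted p = 0.110), at 9.29 ± 2.21 FPKM (n = 4). The Cilengitide call was lost without PBS replicate 2 (adjusted p = 0.0528) or Cilengitide replicate 1 (0.0541). Insr, the insulin receptor, had the smallest p of the 3 in SB273005 against BAPN, at 3.44 ± 0.483 against 4.88 ± 0.519 FPKM, a difference of -0.45 ± 0.11 that did not pass (adjusted p = 0.123). Of 8 genes of IGF-binding-protein proteases and stanniocalcins, 1 rose in SB273005 and 2 in Cilengitide against PBS. Adam12, a metalloprotease that cuts IGFBP3 and IGFBP5, was 2.45 ± 0.49 above PBS with SB273005 (adjusted p = 0.00897) and 2.43 ± 0.51 with Cilengitide (adjusted p = 0.0183), where the second was lost without PBS replicate 2 (adjusted p = 0.0676), PBS replicate 3 (0.0680) or Cilengitide replicate 1 (0.0766). In limma on log2(FPKM + 1) the second was 0.90 (adjusted p = 0.0906). With BAPN alone the Adam12 difference was 2.25 ± 0.49 (adjusted p = 0.0591). Adam12 was low, at 1.48 ± 0.750 FPKM with SB273005 (SD, n = 4), 1.34 ± 0.653 FPKM with BAPN (n = 4) and 0.281 ± 0.0663 FPKM with PBS (n = 3). Klk1, a tissue kallikrein, was 0.63 ± 0.12 above PBS with Cilengitide (adjusted p = 0.0143), which was lost without PBS replicate 2 (adjusted p = 0.0610) or Cilengitide replicate 1 (0.0505) and in limma on log2(TPM + 1) (0.0503). With BAPN alone it was 0.42 ± 0.12 (adjusted p = 0.130).

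Of 35 genes of IGF1 receptor signalling, 2 rose and 1 fell in SB273005 and 1 rose in Cilengitide against PBS, a smaller share in each than of all genes (13.2% and 5.58% passed). Pik3r1, the regulatory subunit of PI3K, was 1.02 ± 0.19 above PBS with SB273005 (adjusted p = 0.00728) and 1.08 ± 0.21 with Cilengitide (adjusted p = 0.0133), with the second lost without PBS replicate 2 (adjusted p = 0.0599) and the first in limma on log2(TPM + 1) (0.0524). The adaptor Grb10, which restrains the insulin and IGF1 receptors and is imprinted, was at 12.2 ± 1.47 FPKM with SB273005 (SD, n = 4) and 6.71 ± 0.593 FPKM with PBS (n = 3), a difference of 0.92 ± 0.15 (adjusted p = 0.00388). With BAPN alone Pik3r1 was 0.52 ± 0.19 (adjusted p = 0.272) and Grb10 0.37 ± 0.15 (adjusted p = 0.318) above PBS. Grb14, a relative of Grb10, was at 3.76 ± 0.493 FPKM with SB273005 and 5.38 ± 0.266 FPKM with PBS, a difference of -0.46 ± 0.14 (adjusted p = 0.0467), which was lost without any 1 of 10 libraries (adjusted p 0.0507 to 0.138) and held without BAPN replicate 2 or 4, Cilengitide replicate 1 or SB273005 replicate 1. It was also lost within the set of PBS and SB273005 replicates 1 to 3 (adjusted p = 0.162). Of the 35 genes, 14 were above PBS in SB273005, 13 in Cilengitide and 14 in BAPN, with medians of -0.06, -0.04 and -0.02. None of 8 genes of the growth hormone axis passed in edgeR in SB273005 against PBS. There 4 of the 8 had an unadjusted p under 0.05, as did 3874 of all 13294 genes tested. The smallest p were those of Ghr (0.47 ± 0.16, adjusted p = 0.0697) and Cish (0.98 ± 0.35, adjusted p = 0.0867).

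Of 17 tested genes of an imprinted network that holds H19, Igf2, Grb10 and Igf2r, 4 rose in SB273005 and 1 in Cilengitide against PBS, where 7.82% and 3.98% of all genes rose. The medians of the 17 were 0.33 with SB273005, -0.13 with Cilengitide and 0.22 with BAPN alone. Besides Grb10 and Igf2r these were Meg3, a maternally expressed noncoding RNA, at 1.37 ± 0.36 (adjusted p = 0.0270), and Plagl1, a zinc finger factor known to act on this network in mouse, at 1.89 ± 0.55 (adjusted p = 0.0407). The Meg3 call was lost without PBS replicate 1 (adjusted p = 0.0650), 2 (0.0763) or 3 (0.0926) and within the set of PBS and SB273005 replicates 1 to 3 (0.102). The Plagl1 call was lost without any 1 PBS library, BAPN replicate 2 or 4, or SB273005 replicate 1 or 2 (adjusted p 0.0526 to 0.122), and in limma on log2(FPKM + 1) the difference was 0.79 (0.0796). It was also lost within the set of PBS and SB273005 replicates 1 to 3 (adjusted p = 0.0976) and when only the 2 groups were fitted (0.104). Of 6 tested genes of imprinting control, Zfp57, which protects imprints in the embryo, rose in SB273005 (2.90 ± 0.57, adjusted p = 0.00846), at 2.53 ± 2.29 FPKM (SD, n = 4) against 0.356 ± 0.0743 FPKM in PBS (n = 3), and this call was lost when only the 2 groups were fitted (adjusted p = 0.0582) and within the set of PBS and SB273005 replicates 1 to 3 (0.0565). Ctcf, the insulator protein that binds between Igf2 and H19, fell in Cilengitide (-0.33 ± 0.09, adjusted p = 0.0472), a call lost without any 1 library other than SB273005 replicates 1 and 2 (adjusted p 0.0512 to 0.168). The Ctcf call passed in 3 of 10 other settings. With BAPN alone, the edgeR difference from PBS was 0.93 ± 0.53 for Zfp57 (adjusted p = 0.563) and -0.23 ± 0.08 for Ctcf (adjusted p = 0.262). Of the IGF2 mRNA-binding and let-7 list, 4 genes were tested and none passed in edgeR in any comparison. An unadjusted p under 0.05 was found for 1, 2 and 1 of them in SB273005, Cilengitide and BAPN against PBS. Of all 13294 genes tested, 3874, 2684 and 1591 had such a p in these 3 comparisons. Igf2bp2 had the smallest p in SB273005 against PBS (0.85 ± 0.28, adjusted p = 0.0639). In none of these lists did a gene pass in BAPN against PBS or among the BAPN-fed groups.

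The genes whose log2(FPKM + 1) followed each member most closely over the 14 libraries are given as a description, since all values share library, depth and group. Igfbp2 was followed by Acan, the cartilage proteoglycan (Pearson r = 0.966, Spearman rho = 0.947), Anxa1 (r = 0.949) and Slit3 (r = 0.929). Igfbp3 was followed by Septin4 (r = 0.939), C1qtnf7 (r = 0.933) and Tbc1d2b (r = 0.926), and Igfbp4 by Gpr39 (r = 0.937), the complement inhibitor Serping1 (r = 0.930) and the macrophage growth factor Csf1 (r = 0.884). Igf1 was followed by the heparin-binding factor Ptn (r = 0.930), Gask1a (r = 0.907) and Aspn (r = 0.890). Igf1r was followed by Gcnt2 (r = 0.916), Tns1 (r = 0.905) and Mafk (r = 0.902), and Igf2 by Fryl (r = 0.894), Gpr155 (r = 0.877) and Abl1 (r = 0.856). Igfbp7 was followed by Col18a1 (r = 0.960, rho = 0.556), Vcl (r = 0.957, rho = 0.692) and Vasn (r = 0.953, rho = 0.635), where the ranks were less alike than the values. The best matches were weaker for Igfbp5 (Vit, r = 0.783, then Ccl11, 0.764, and Hsd11b2, 0.754), Igfbp6 (Clic3, r = 0.782, then Tnnt2, 0.761, and Chst4, 0.734) and H19 (Rsad2, r = 0.781, then Chaf1a, 0.770, and Cmss1, 0.762).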

How the data were processed

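Ascending aorta was profiled by bulk RNA sequencing in 14 libraries. The authors aligned reads to mm10 and quantified transcripts, and the submitters' processing notes name HISAT2 2.2.1 and StringTie 2.1.6. The deposited tables give estimated counts and FPKM per gene and transcript and TPM per gene. What reads were filtered, which annotation was used and how strand was set is not given in the sources used here. Estimated counts, whole numbers in the table, are not direct read counts, so the counting model is an approximation.

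Groups came from the labels. Genes at 1 FPKM or more in at least 3 libraries (13294) were fitted with edgeR 4.0.16 (R 4.3.3; TMM scaling, quasi-likelihood F test) in 1 fit over 14 libraries, with Benjamini-Hochberg adjustment. Standard errors were worked back from the log2 difference and F. Replicates of a group differed beyond counting noise (chi-square per degree of freedom at least 59.5). Alternatives used DESeq2 1.42.0, limma 3.58.1 on log2(FPKM + 1), log2(FPKM + 0.1) and log2(TPM + 1), other filters and subsets of libraries. The TPM values were rescaled from the deposited FPKM within each library, not taken from the deposited TPM. Same-numbered replicates correlated over 0.1 in their deviations in all 3 pairs of SB273005 and Cilengitide (0.15 to 0.30), but not in all pairs of any other comparison. The fit was tested on simulated data. At least 98.84% of counts lay in tested genes.

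All members are named. Of each other list, up to 4 passing genes with the smallest p are named (where none passed, up to 2), and the 3 genes most correlated with each member. Members and lists were chosen with earlier results of these data known. Members were matched by symbol, and promoters and microRNAs come from RefSeq GRCm38.p6.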

Additional observations from a re-analysis of the deposited data

Results flagged for a closer look

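Igf1 in BAPN replicate 1 was at 11.03 FPKM, against 6.57 to 7.16 FPKM in the other 3 BAPN libraries, so that its gap to the nearest library, as a share of the group's range (0.868), was above Dixon's 95% critical value for 4 samples (0.829). It was the 1 value to exceed that limit among the 20 groups of 4 libraries examined, the 10 members in SB273005 and in BAPN, and chance gives about 1 in 20. Without that library the Igf1 difference between BAPN and PBS was -0.12 (adjusted p = 0.9748 in edgeR), against 0.07 with it.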

How the results depend on the processing

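Igfbp3 in SB273005 against PBS kept its direction and its side of the threshold under all 11 other settings and without each library in turn, at log2 differences of 2.39 to 3.02. Igfbp3 in Cilengitide against PBS did so under all 10 other settings, at 1.98 to 2.32, but not without each library. Igfbp4 in SB273005 against PBS lost its call under 6 of 11 other settings. The left-out SB273005 libraries 2 and 4, chosen after seeing the data, are the 1 with low Acta2 and the 1 outside the Umod set of PBS. Every member had at least 153 estimated counts in each library. Where a value below differs from the main fit, the cause was not tested.

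The number of members past the threshold, 2 in SB273005, 1 in Cilengitide and 0 in BAPN against PBS, moved as follows. In SB273005 against PBS it was 1 in limma on log2(FPKM + 1) and on log2(TPM + 1), with no FPKM filter, with only the 2 groups fitted, with the replicate block and among PBS and SB273005 replicates 1 to 3, and 1 to 3 with a library left out. In Cilengitide against PBS it was 3 in DESeq2 and without SB273005 libraries 2 and 4, 2 with a filter of 5 FPKM and with only the 2 groups fitted, and 0 to 3 with a library left out. DESeq2 called 1 in BAPN against PBS and 1 in SB273005 against BAPN, where leaving out a library gave 0 to 1.

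The genes called over the whole table numbered 1754 in SB273005 against PBS, and 729 in limma on log2(TPM + 1), 1006 with no filter, 534 with only the 2 groups, 532 among PBS and SB273005 replicates 1 to 3, and 498 to 1988 with a library left out. In Cilengitide against PBS they numbered 742, and 1465 in DESeq2, 421 with no filter, 1145 without SB273005 libraries 2 and 4 and 109 to 1249 with a library left out. In BAPN against PBS they numbered 31, and 480 in DESeq2, 15, 72 and 20 in limma on log2(FPKM + 1), log2(FPKM + 0.1) and log2(TPM + 1), 3 with no filter, 70 with a filter of 5 FPKM, 105 with only the 2 groups, 141 with the block, 149 without SB273005 libraries 2 and 4 and 2 to 186 with a library left out. In SB273005 against BAPN they numbered 4, and 395 in DESeq2, 15 and 14 in limma on log2(FPKM + 1) and log2(FPKM + 0.1), 0 with no filter and with only the 2 groups, 15 with a filter of 5 FPKM, 20 with the block, 13 without SB273005 libraries 2 and 4 and 0 to 79 with a library left out. In Cilengitide against BAPN edgeR called 0 (807 at an unadjusted p under 0.05), DESeq2 21 and the fits with a library left out 0 to 1. In SB273005 against Cilengitide edgeR called 0 (1224 at an unadjusted p under 0.05), DESeq2 39, the fit without SB273005 libraries 2 and 4 11 and those with a library left out 0 to 15.

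Signs changed for members whose differences were near 0 or whose libraries split. In DESeq2 the sign differed, at -0.0030 for Igf1 in Cilengitide against PBS, 0.0014 for Igfbp6 in Cilengitide against BAPN, -0.0016 for Igf2 in SB273005 against Cilengitide. In edgeR with DESeq2 size factors the sign differed, at -0.0030 for Igf1 in Cilengitide against PBS, 0.0014 for Igfbp6 in Cilengitide against BAPN, -0.0012 for Igf2 in SB273005 against Cilengitide. In limma on log2(FPKM + 1) the sign differed, at 0.0069 for Igfbp5 in SB273005 against PBS, -0.043 for Igf1 and 0.89 for H19 in Cilengitide against PBS, 0.70 for H19 and 0.0077 for Igfbp6 in BAPN against PBS, -0.0011 for Igf2 in SB273005 against Cilengitide. In limma on log2(FPKM + 0.1) the sign differed, at 0.0076 for Igfbp5 in SB273005 against PBS, -0.049 for Igf1 and 1.25 for H19 in Cilengitide against PBS, 1.05 for H19 and 0.0096 for Igfbp6 in BAPN against PBS. In limma on log2(TPM + 1) the sign differed, at 1.32 for H19 and 0.19 for Igfbp6 in Cilengitide against PBS, 1.00 for H19 and 0.081 for Igfbp6 in BAPN against PBS, -0.083 for Igfbp2 and -0.044 for Igfbp6 in SB273005 against BAPN, 0.021 for Igf1 and 0.10 for Igfbp6 in Cilengitide against BAPN, -0.19 for Igf2 and -0.15 for Igfbp6 in SB273005 against Cilengitide. With no FPKM filter the sign differed, at -0.034 for Igfbp6 in SB273005 against PBS, -0.012 for Igf1 in Cilengitide against PBS, 0.0058 for Igfbp6 in Cilengitide against BAPN, -0.040 for Igf2 in SB273005 against Cilengitide. With a filter of 5 FPKM the sign differed, at 0.041 for Igfbp5 in SB273005 against PBS, -0.0020 for Igf1 in Cilengitide against PBS, 0.0098 for Igfbp4 in SB273005 against BAPN. With only the 2 groups fitted the sign differed, at 0.011 for Igfbp5 in SB273005 against PBS, 0.0049 for Igfbp6 in Cilengitide against BAPN. With replicate number as a block the sign differed, at 0.66 for H19 and 0.010 for Igfbp6 in Cilengitide against PBS, 0.86 for H19 in BAPN against PBS, -0.20 for H19 and 0.016 for Igfbp6 in Cilengitide against BAPN, -0.022 for Igf2 in SB273005 against Cilengitide. Without SB273005 libraries 2 and 4 the sign differed, at 0.038 for Igfbp7 in SB273005 against PBS, -0.0044 for Igf1 in Cilengitide against PBS, 0.17 for Igfbp4 in SB273005 against BAPN, 0.0049 for Igfbp6 in Cilengitide against BAPN, 0.12 for Igfbp2 and 0.0996 for Igfbp4 in SB273005 against Cilengitide. With a library left out, the sign changed for 24 differences. In SB273005 against PBS it ran from -0.27 to 0.30 for Igfbp5, -0.30 to 0.43 for Igfbp6 and -0.29 to 0.11 for Igfbp7. In Cilengitide against PBS it ran from -0.21 to 0.14 for Igf1, -0.73 to 3.02 for H19, -0.21 to 0.35 for Igfbp5 and -0.40 to 0.32 for Igfbp6. In BAPN against PBS it ran from -0.12 to 0.21 for Igf1, -1.06 to 2.69 for H19, -0.031 to 0.19 for Igf1r and -0.40 to 0.32 for Igfbp6. In SB273005 against BAPN it ran from -0.13 to 1.23 for Igfbp2, -0.16 to 0.096 for Igfbp4, -0.073 to 0.28 for Igfbp6 and -0.36 to 0.047 for Igfbp7. In Cilengitide against BAPN it ran from -0.28 to 0.12 for Igf1, -0.19 to 0.57 for H19, -0.11 to 0.23 for Igfbp4 and -0.15 to 0.17 for Igfbp6. In SB273005 against Cilengitide it ran from -0.12 to 0.082 for Igf2, -1.49 to 0.11 for Igfbp2, -0.24 to 0.093 for Igfbp4, -0.14 to 0.051 for Igfbp5 and -0.070 to 0.26 for Igfbp6.

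Groups share replicate numbers in the labels, which do not say what a number marks. Same-numbered libraries deviated together by a correlation over 0.1 in 12 of 19 pairs (range -0.16 to 0.34). All 3 pairs exceeded 0.1 in SB273005 against Cilengitide, where the replicate block called 0 genes and 0 members (1375 and 1 at an unadjusted p under 0.05), as without it. In each of the other 5 comparisons at least 1 pair was under 0.1. With the replicate block the Igfbp4 call in SB273005 against PBS was lost (adjusted p = 0.0777), as were those of Grb14 (0.0855) and Plagl1 (0.0610) in the same comparison and of Ctcf in Cilengitide against PBS (0.0730).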
